A study of Canis lupus familiaris with 28 samples.

Results

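Solute carriers (SLC proteins) move sugars, amino acids, ions, lipids, vitamins and other small molecules across cell and organelle membranes, and are grouped into families by sequence similarity. In white blood cells and tumors these proteins set which fuels, metals and salts enter the cell, and several are used as entry routes by drugs. SLC genes were found by name, as the Ensembl identifiers whose dog symbol, or human homolog symbol where no dog symbol was given, starts with SLC, among the 1126 identifiers that the readable supplementary gene lists name. The rule found 22 of 32704 identifiers in the count tables, 21 of them by a dog symbol and 1, *SLC39A5*, by a human homolog symbol, and 21 of the 22 are described here. SLC genes outside the readable lists are not analysed here, so these genes are a sample of the family and not the whole of it.

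Histiocytic sarcoma (HS) is a malignancy of the dendritic cell and macrophage lineages. RNA was sequenced from 18 tumors of Bernese Mountain Dogs, of which 15 carry the label HS and 3 the label HHS, the hemophagocytic form that arises from macrophages. The controls were blood of 3 Bernese Mountain Dogs and 1 liver, 1 lung and 1 spleen of German Shepherd Dogs, and the cultured samples were the HS cell lines BD and OD (from Bernese Mountain Dogs) and PJ (from a Rottweiler) and the normal dendritic cell (DC) strain DC3F9, grown from monocytes of a mongrel dog with GM-CSF and IL-4. No sample was labelled as treated with a drug, and each line and each solid control tissue is a single library. The tumors came from the lung (HS27, HS35, HS47, HS48, HS52, HS53), the thorax (HS4, a thoracic mass, HS14 and HS37), the liver (HS33, HS36, HS46, HS50), the spleen (HS29, HS51), the leg (HS34), the shoulder (HS39) and a lymph node (HS41), and HS41, HS46 and HS53 are the HHS tumors.

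Levels are given as counts per 1000000 counted reads (CPM), which are not corrected for gene length and are compared only within a gene. Total counts ran from 99701394 to 171815073 in tumors, 133524755 to 180801439 in controls and 82007857 to 131518875 in cultured samples, so that 3 counts, taken as the floor of detection, were 0.0166 to 0.0366 CPM. The floor covers counting error only. The liver control stood apart in its scaling: its TMM factor (the scaling that edgeR estimates from the bulk of genes) was 0.342, so its raw CPM understate it beside the other samples. Among the cultures the factor was 0.794 in DC3F9 and 1.06 to 1.10 in the lines, so raw CPM understate DC3F9 beside the lines. The labelled tissues carried their markers, with *PLG* (plasminogen) at 4615 CPM in the liver control, *AGER* (a lung alveolar gene) at 1982 CPM in the lung control and *IL2RB* (a lymphocyte receptor chain) at 391, 412 and 700.2 CPM in blood. The blood libraries ran on a flow cell of their own, apart from that of the tumors and solid tissues, so blood, flow cell and breed cannot be told apart among the controls.

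**Figure D1:**
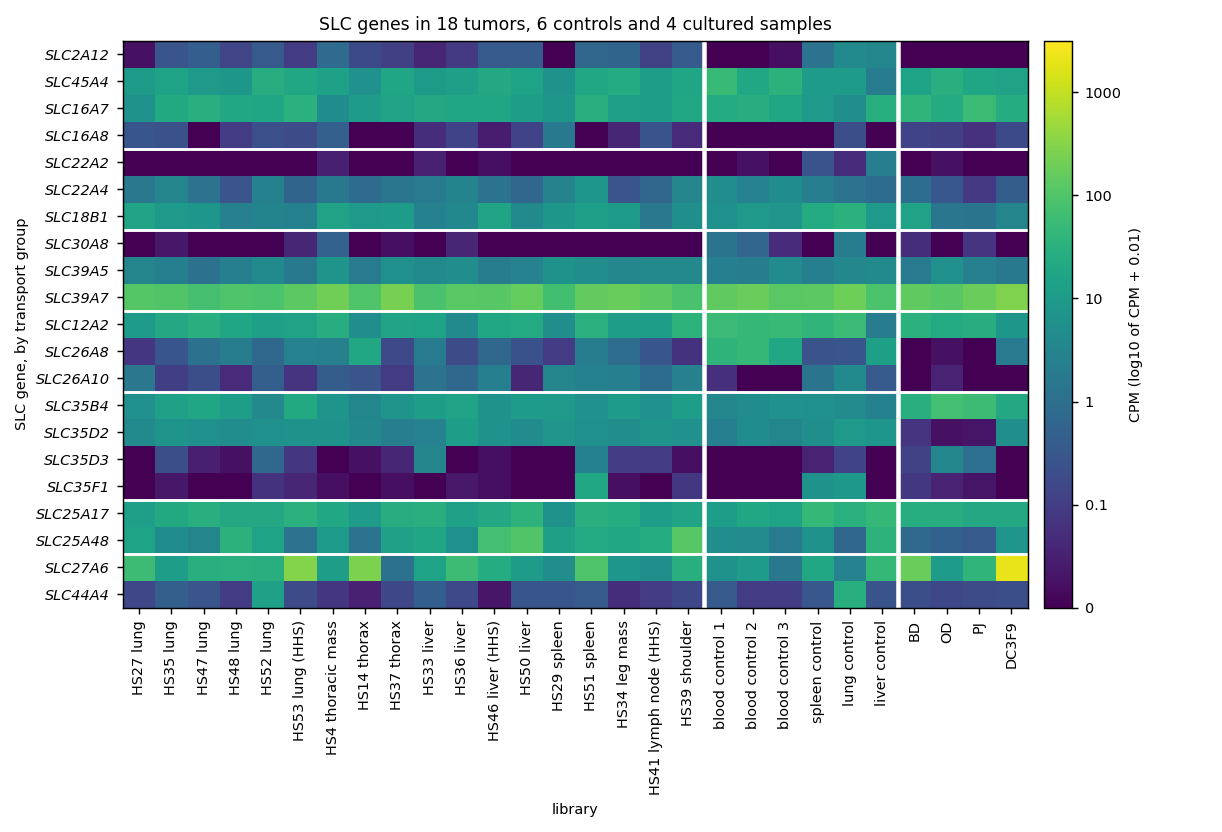
Each row is 1 SLC gene, ordered by transport group between white lines, and each column 1 library (18 tumors by site, 6 controls, 4 cultured samples), with colour giving log10 of CPM + 0.01. *SLC39A7* was high in every library, while *SLC35F1* (HS51, 18.7 CPM) and *SLC44A4* (HS52, 13.8 CPM) were high in single tumors, and *SLC27A6* reached 2059 CPM in DC3F9.

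The first comparison asked which SLC genes differ between the 18 tumors and the 5 controls the study kept (blood, spleen and lung, without liver). *SLC12A2*, which carries sodium, potassium and chloride into cells, and *SLC26A8*, an anion transporter known from sperm, were lower in tumors. *SLC35B4*, which brings UDP-sugars into the endoplasmic reticulum and Golgi, *SLC25A48*, a mitochondrial choline carrier, and *SLC27A6*, a fatty acid transport protein, were higher. These 5 of the 18 genes that passed the filter on low counts (27.8%) had an adjusted p under 0.05 by edgeR's quasi-likelihood test with Benjamini-Hochberg adjustment over all genes, where 27.2% of all 19430 genes tested did. With a log2 fold change (log2FC) beyond 1.5 added, 3 genes remained, 2 higher and 1 lower (16.7%, against 17.8% of all genes), and at the study's stricter cutoff of adjusted p under 0.0005 there were 0 (2.77% of all genes). At an unadjusted p under 0.05 there were 6 of 18 genes (33.3%, against 39.7% of all genes), and DESeq2 called 1 of 17, *SLC12A2*, at the stricter cutoff (5.88%, against 9.3% of all genes). The SLC genes thus changed about as often as genes in general, and the median log2FC was -0.03 over the 18 genes and -0.01 over all genes. In 1 gene of the 18, *SLC12A2*, no tumor overlapped a control (5.56%, where 2.22% of all genes had no overlap). *SLC22A2*, *SLC30A8* and *SLC35F1* did not pass the filter and are described by their levels. In bulk samples, fewer cells of a type and less RNA per cell cannot be told apart.

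**Figure D2:**
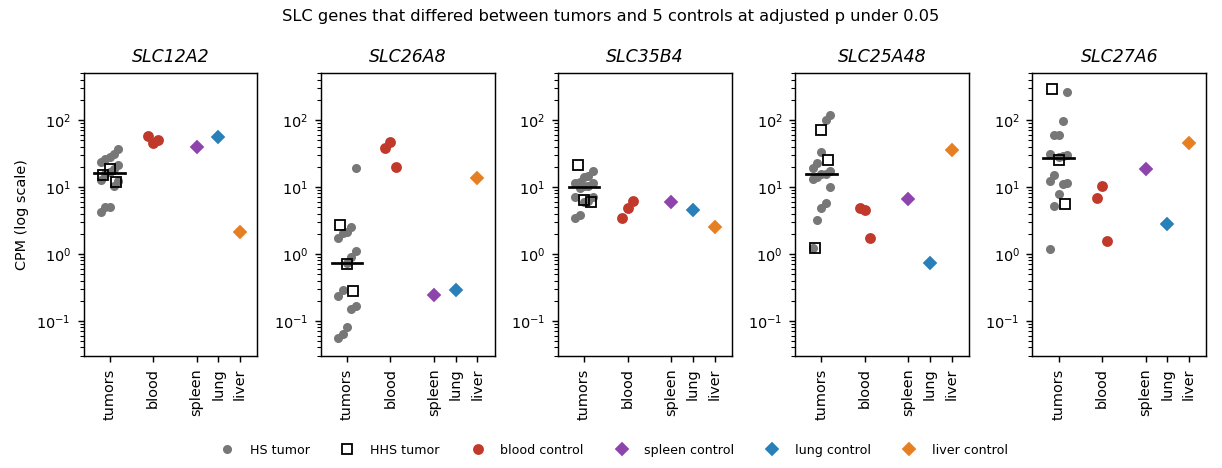
CPM on a log scale for the 5 SLC genes with an adjusted p under 0.05 in tumors against controls; circles are HS tumors, open squares HHS tumors, the line their median, red circles blood and diamonds the spleen, lung and liver controls. All tumors lie below the blood, spleen and lung controls for *SLC12A2* (36.3 CPM at most, against at least 39.9), and the liver control lies above the tumor median for *SLC25A48*, *SLC27A6* and *SLC26A8*.

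Of the chloride and other anion transporters, *SLC12A2* (ENSCAFG00000000637) gave the firmest difference. Its level was 57.3, 45.6 and 50.3 CPM in the 3 blood controls, 39.9 in spleen, 56.2 in lung and 2.14 in liver, and in the tumors it ran from 4.24 (HS36) through a median of 16.1 to 36.3 (HS39). All 18 tumors were below each of the 5 controls, and all were above the liver control in raw CPM, whose level became 6.25 CPM after TMM scaling. The 18 tumors averaged 17.3 ± 9.10 CPM (SD, n = 18), the 5 controls 49.9 ± 7.28 CPM (SD, n = 5), and the log2FC was -1.47 (SE 0.30, adjusted p = 0.00131, edgeR). The difference kept its direction against blood alone (log2FC -1.58, adjusted p = 0.00253) and against spleen and lung alone (log2FC -1.28), where its adjusted p by edgeR was 0.0887.

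The log2FC of *SLC26A8* (ENSCAFG00000001376) changed its sign with the control tissue, though it did not pass the cutoff against spleen and lung. Blood had 38.3, 46.9 and 20.2 CPM and liver 13.6, whereas spleen had 0.244 and lung 0.293. The tumors ran from 0.0549 (HS39) through a median of 0.719 to 19.1 (HS14), so 17 of the 18 tumors were at 2.72 CPM or lower and HS14 alone was near the lowest blood sample. Against the 5 controls the log2FC was -3.25 (SE 1.04, adjusted p = 0.0237, edgeR), against blood alone -3.98 (adjusted p = 0.006), and against spleen and lung alone +3.28 (adjusted p = 0.368). HS14 held 54.6% of the summed CPM of the tumors, and the other 17 averaged 0.937 CPM. The lowest tumors, such as HS39, lay below spleen and lung. Without HS14 the log2FC against the 5 controls was -4.63 (SE 0.84, adjusted p = 0.000468), past the stricter cutoff, and the call was lost without blood control 1 (adjusted p = 0.0672) or blood control 2 (0.0918). *SLC26A10* (ENSCAFG00000000252), a little-studied member of the same anion transporter family, was at 0.0444 CPM in 1 blood control and 0 counts in the other 2, at 1.30 in spleen, 4.12 in lung and 0.371 in liver, and ran from 0.0292 to 3.23 CPM in tumors with a median of 0.585.

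Among the nucleotide sugar transporters, *SLC35B4* (ENSCAFG00000001300) varied less among the 5 controls than among the tumors. It stood at 3.45, 4.82 and 6.07 CPM in blood, 5.89 in spleen, 4.57 in lung and 2.55 in liver, and ran from 3.38 (HS14) through a median of 9.97 to 21.4 (HS53) in tumors. The groups overlapped, with 16 of the 18 tumors above the controls' mean of 4.96 ± 1.07 CPM (SD, n = 5), and the log2FC was 1.12 (SE 0.36, adjusted p = 0.0225, edgeR). Against blood alone its log2FC was 1.10 (adjusted p = 0.0676) and against spleen and lung alone 1.14 (adjusted p = 0.229), and without blood control 1 or the lung control its adjusted p was 0.0774 and 0.0512. *SLC35D2* (ENSCAFG00000001216), which carries UDP-sugars and GDP-mannose into the Golgi, was present in every tissue library, at 2.22 to 11.4 CPM in tumors and 2.40 to 8.84 in the 5 controls.

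The other 2 members of the SLC35 family were off in most libraries. *SLC35D3* (ENSCAFG00000000256), a relative needed for platelet granules in mice, was at or under 3 counts in 10 of 18 tumors and reached 3.15 CPM in HS33, 2.65 in HS51 and 0.681 in HS52. The highest control was the lung, at 0.117 CPM. HS33, from the liver, also held liver genes, with *PLG* at 78.2 CPM and *LEAP2* (a liver peptide) at 21.0 CPM, and the liver control, a single library, had 0 counts of *SLC35D3*. The part of normal liver in the level of HS33 was not tested. *SLC35F1* (ENSCAFG00000000932), whose cargo is not settled, was at 6.77 CPM in the spleen control and 8.41 in the lung control, at 0 counts in blood and liver, and at 18.7 CPM in 1 tumor, HS51, from the spleen. The other 17 tumors were at 0.0686 CPM or lower, the other spleen tumor HS29 at 0 counts.

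HS51 also stood apart for red cell precursor genes. *TRIM58* and *TSPO2*, both known from developing red cells, were at 18.7 and 20.3 CPM in HS51, while their sum was at most 0.233 CPM in the other 17 tumors. In the controls the sum was 5.30 CPM in spleen, 0.13 in lung and 3.36 to 28.3 in blood. *SLC35F1* was at 8.41 CPM in that lung control and at 0 counts in blood. Among the tumors, *SLC22A4*, described below, was also highest in HS51. The part of red cell precursors in these values was not tested.

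The organelle carriers differed from each other. *SLC25A48* (ENSCAFG00000001085), which brings choline into mitochondria, was at 4.89, 4.58 and 1.74 CPM in blood, 6.58 in spleen and 0.728 in lung, but at 35.6 in liver. In tumors it ran from 1.22 (HS53) through a median of 15.6 to 120.1 (HS39), with HS50 at 99.5 and HS46 at 70.9, and 15 of the 18 tumors were above the mean of the 5 controls.
The tumors averaged 27.4 ± 34.1 CPM (SD, n = 18), the controls 3.703 ± 2.41 CPM (SD, n = 5), with a log2FC of 2.94 (SE 0.96, adjusted p = 0.0253, edgeR). With the liver control added to the other 5, the log2FC fell to 0.38 (adjusted p = 0.778), so the difference depends on leaving liver out. It had the same direction against blood alone (log2FC 2.85, adjusted p = 0.0693) and against spleen and lung alone (log2FC 3.07, adjusted p = 0.235), and the call was lost without blood control 1 (adjusted p = 0.0501), without blood control 3 (0.0659) and without the lung (0.0557). *SLC25A17* (ENSCAFG00000001142), the peroxisomal carrier of cofactors such as coenzyme A, overlapped in full, at 6.24 to 36.7 CPM in tumors and 11.7 to 46.3 in the 5 controls.

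*SLC27A6* (ENSCAFG00000000710), a fatty acid transport protein best known from heart muscle, was at 6.76, 10.4 and 1.56 CPM in blood, 18.5 in spleen, 2.80 in lung and 45.8 in liver. Tumors ran from 1.20 (HS37) through a median of 26.8 to 294.7 (HS53), with HS14 at 261 and HS51 at 97.3. The log2FC was 2.95 (SE 1.11, adjusted p = 0.0496, edgeR), with 14 of the 18 tumors above the controls' mean of 7.999 ± 6.83 CPM (SD, n = 5). This call lay close to the cutoff, and it was lost without any 1 of the 5 controls or of 10 tumors. Without HS53 the adjusted p by edgeR was 0.0609, without HS14 0.0661, without blood control 3 0.11 and without the spleen control 0.0504. The log2FC stayed between 2.43 (without HS14) and 3.44 (without the spleen control). With the liver control added the log2FC was 1.02 (adjusted p = 0.466), against blood alone 3.19 (adjusted p = 0.0898) and against spleen and lung alone 2.63 (adjusted p = 0.365). The 2 tumors highest for *SLC27A6*, HS53 and HS14, were the 2 lowest for *SLC25A48*, at 1.22 and 1.24 CPM. *SLC12A2* and *SLC27A6* lie next to each other in the dog genome with *FBN2* between them (gene order of NCBI RefSeq, on another assembly), and moved in opposite directions.

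The other choline transporter-like gene, *SLC44A4* (ENSCAFG00000000658), an epithelial protein, was at 29.3 CPM in the lung control and at most 0.347 in blood, spleen and liver. In tumors it was at 13.8 CPM in HS52, from the lung, and between 0.0117 and 0.457 in the other 17, so HS52 had 47.2% of the level of normal lung. Epithelial markers were present in HS52 at 1.68 CPM for *GRHL2*, 1.46 for *SPDEF*, 2.23 for *RSPH4A* and 1.18 for *ROS1*, which are 4.72%, 31.9%, 71.6% and 1.64% of the lung control. Among the tumors *SPDEF* and *RSPH4A* were highest in HS52. *GRHL2* was higher in HS33 (3.07 CPM) and HS34 (2.66 CPM), where *SLC44A4* was at 0.440 and 0.0424. *ROS1* was higher in the lung tumors HS35 (3.79 CPM) and HS47 (1.93 CPM). *AGER* was at 14.4 CPM in HS52 and at 57.4 and 53.8 in HS35 and HS47, where *SLC44A4* was at 0.457 and 0.278. Without HS52 the log2FC of *SLC44A4* was -4.75 (SE 0.85, adjusted p = 0.000435, edgeR), against an adjusted p of 0.156 with it. The other 17 tumors averaged 0.186 CPM, and the blood and spleen controls were at 0.0824 to 0.347, so this fall rests on the lung control. The part of lung epithelium in these values was not tested.

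Of the organic cation and polyamine transporters, *SLC22A2* (ENSCAFG00000000757), or OCT2, a cation transporter known from the kidney, was at 2.20 CPM in the liver control, 0.256 in spleen and 0.039 in lung. It was at or under 3 counts in all 18 tumors, with 15 of them at 0 counts, so it was not detected in tumors at this depth. *SLC22A4* (ENSCAFG00000000840), or OCTN1, carrier of the antioxidant ergothioneine, was at 5.02, 2.696 and 4.61 CPM in blood, 2.24 in spleen, 1.26 in lung and 0.857 in liver, and ran from 0.268 (HS34) through a median of 1.53 to 7.68 (HS51) in tumors. *SLC18B1* (ENSCAFG00000000189), which loads polyamines into vesicles, was higher in the lung (32.3 CPM) and spleen (24.4) controls than in any tumor (1.55 to 16.3, median 7.89) and stood at 5.62 to 9.15 in blood, and its adjusted p was 0.251.

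**Figure D3:**
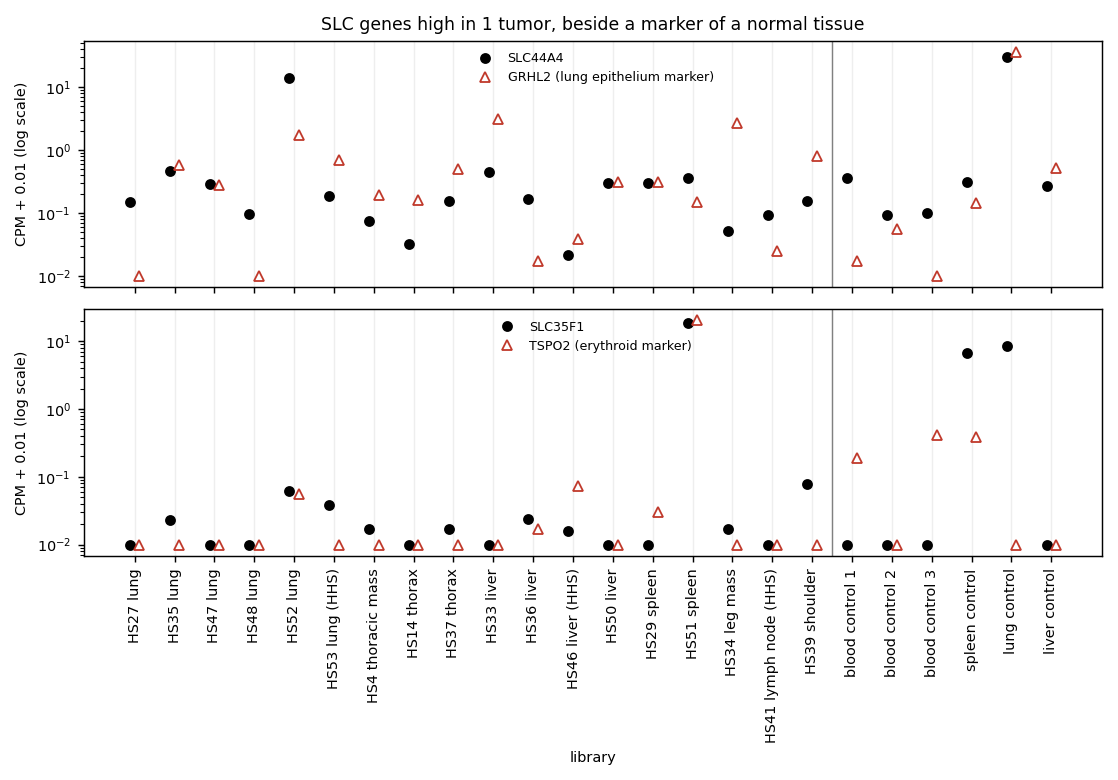
CPM + 0.01 on a log scale in each of 18 tumors and 6 controls for *SLC44A4* and *SLC35F1* (filled circles), each with 1 marker of a normal tissue (open triangles). *GRHL2* was at 1.68 CPM in HS52 beside *SLC44A4* at 13.8, but was higher in HS33 (3.07 CPM) and HS34 (2.66 CPM). *TSPO2* peaked in HS51 together with *SLC35F1*, but was at 0 CPM in the lung control, where *SLC35F1* was at 8.41 CPM.

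High values in single tumors occurred at a share near that of genes in general. In 5 of the 18 tested SLC genes (27.8%) the highest tumor was at least 10 times the tumor median, as in 19.9% of all genes tested, and the 5 were *SLC35D3*, *SLC44A4*, *SLC26A8*, *SLC16A8* and *SLC27A6*. HS4 and HS53 were each the highest tumor for 3 of the 21 genes. In *SLC35F1* the single highest tumor held 98.9% of the summed CPM of all tumors, in *SLC30A8* 87.3% and in *SLC44A4* 81.4%. The median over all genes tested was 14.98%. *SLC35F1* and *SLC30A8* are not among the genes tested, and the share of all genes with values this high was not counted.

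The 3 zinc transporters differed in level and spread. *SLC39A7* (ENSCAFG00000000917), which releases zinc from the endoplasmic reticulum, ran from 68.6 (HS29) through a median of 114.3 to 235 CPM (HS37) in tumors and from 126.6 to 189 in the 5 controls, and was 86.8 in liver. *SLC39A5* (ENSCAFG00000000112), an importer at the cell surface of gut and pancreas, ran from 1.13 to 6.95 CPM in tumors and from 2.02 to 4.41 in controls. *SLC30A8* (ENSCAFG00000000825), which fills the insulin granules of beta cells with zinc, was at 2.18 CPM in the lung control and at 1.28, 0.599 and 0.0407 in blood. It was above 3 counts in 3 of the 18 tumors, with HS4 the highest at 0.528 CPM.

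Sugar and monocarboxylate transporters were represented by 4 genes. *SLC2A12* (ENSCAFG00000000212), or GLUT12, a glucose transporter, was at 1.26 CPM in spleen, 4.26 in lung and 3.35 in liver, at 0.00678 in 1 blood control and at 0 counts in the other 2. Tumors ran from 0 counts (HS29) through a median of 0.215 to 0.837 CPM (HS4), so all 18 tumors were below each solid tissue. In blood no library held more than 1 count, while 16 of the 18 tumors held more than 3. Against spleen and lung the log2FC was -3.13 (SE 0.92, adjusted p = 0.0341, edgeR) and against blood, where most libraries held no count, the adjusted p was 0.00533 in the other direction.

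*SLC16A7* (ENSCAFG00000000316), or MCT2, takes up lactate and pyruvate. It overlapped between groups, at 4.65 to 31.9 CPM in tumors and 5.20 to 26.5 in the 5 controls. *SLC16A8* (ENSCAFG00000001429), or MCT3, the lactate exporter of the retinal pigment epithelium, was at 0 counts in blood, spleen and liver and 0.195 CPM in lung, and in tumors had a median of 0.101 and a maximum of 1.68 (HS29, from the spleen). *SLC45A4* (ENSCAFG00000001232), of a family of proton-coupled sugar transporters, was at 53.1, 20.1 and 34.7 CPM in blood, 10.6 in spleen, 10.7 in lung and 2.03 in liver, and ran from 5.997 to 26.3 in tumors with a median of 14.6. In the 5-control comparison its adjusted p was 0.0843, and against blood alone its log2FC was -1.28 (SE 0.33, adjusted p = 0.00478, edgeR).

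The genes called differed with the set of controls, and the smaller sets also hold fewer libraries. Among the genes past an adjusted p of 0.05 by edgeR against the study's controls, only *SLC26A8* changed direction between blood and spleen with lung. Against blood alone, 6 of 19 SLC genes tested passed an adjusted p under 0.05 with a log2FC beyond 1.5 (31.6%, where 25.3% of all genes did, and the median of all genes lay at 0.44), with *SLC16A8*, *SLC26A10* and *SLC2A12* higher and *SLC12A2*, *SLC26A8* and *SLC30A8* lower in tumors. Against spleen and lung alone, 1 of 20 did (5%, against 8.77% of all genes), *SLC2A12*. *SLC2A12* was the single gene past the cutoff in both, with opposite signs. In raw CPM the liver control exceeded every tumor in 3 of the 21 genes (*SLC2A12*, *SLC22A2* and *SLC25A17*), and after TMM scaling in 9.

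**Figure D4:**
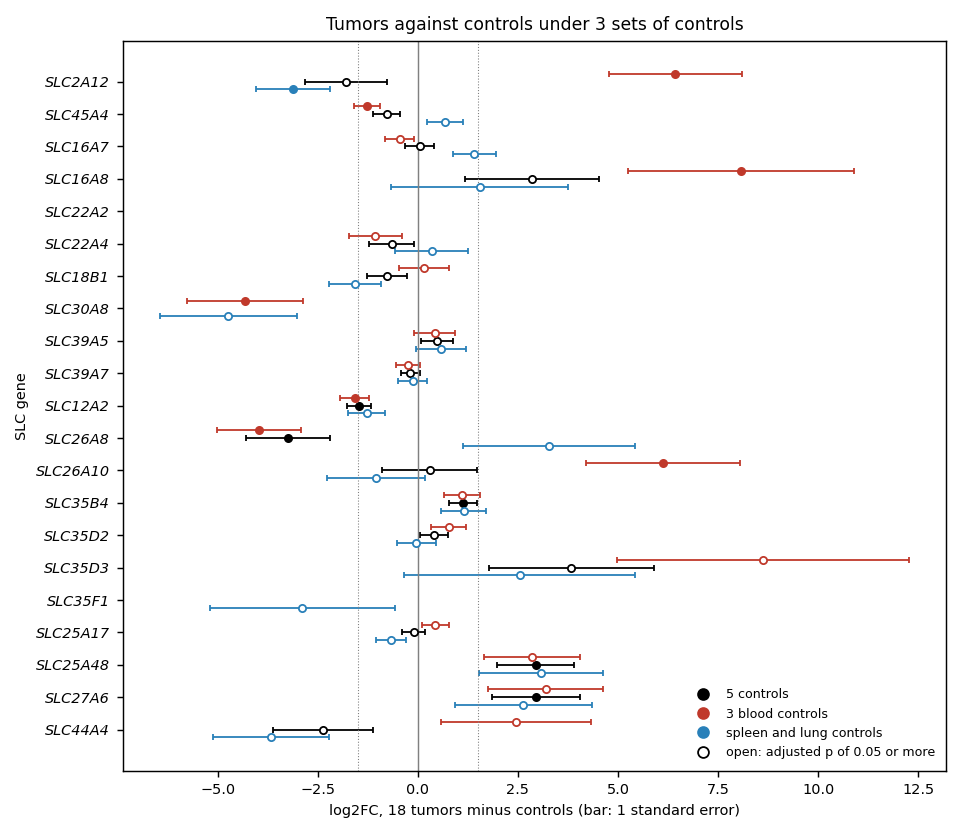
log2FC of tumors minus controls for each SLC gene tested, with bars of 1 standard error, against all 5 controls (black), blood (red) and spleen with lung (blue); filled points have an adjusted p under 0.05 and dotted lines mark a log2FC of 1.5 either way. *SLC12A2*, *SLC35B4*, *SLC25A48* and *SLC27A6* lie on the same side under all sets, while *SLC2A12* and *SLC26A8* lie on opposite sides; fitted values of genes with no count in blood, such as *SLC16A8*, are not bounds.

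HS37 was left out of the HS group, as in the published sample list. For the other 14 HS tumors against the 5 controls, 4 of 18 SLC genes had an adjusted p under 0.05 by edgeR (22.2%, against 23.8% of all genes): *SLC12A2* with a log2FC of -1.47 (adjusted p = 0.00545), *SLC25A48* with 2.88 (adjusted p = 0.0297), *SLC35B4* with 1.09 (adjusted p = 0.0331) and *SLC27A6* with 2.80 (adjusted p = 0.0424). The 2 with a log2FC beyond 1.5 are 11.1% of 18 tested, where 15.9% of all genes passed. For the 3 HHS tumors against the controls, 0 of 18 passed by edgeR (0.134% of all genes did), 6 had an unadjusted p under 0.05 (33.3%, against 20.2% of all genes), and DESeq2 called 6 of 17 (35.3%, against 12.2% of all genes). *SLC12A2* was at 11.96, 18.6 and 14.99 CPM in HS41, HS46 and HS53, below each of the 5 controls, with an adjusted p of 0.0844.

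The 3 HHS tumors were then set against all 15 HS tumors, HS37 included, the question being whether the 2 forms of the disease differ. By edgeR 0 of 18 SLC genes passed, 0 had an unadjusted p under 0.05 (4.01% of all genes) and DESeq2 called 0 (0.00517% of all genes), as edgeR called 0% of all genes. The HHS tumors spread widely among themselves. *SLC27A6* was at 5.53, 25.3 and 294.7 CPM and *SLC25A48* at 25.4, 70.9 and 1.22 CPM in HS41, HS46 and HS53, so HS53 was the highest of all tumors for *SLC27A6* and the lowest for *SLC25A48*.

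The site of the tumor was compared between 4 liver and 6 lung tumors. By edgeR 0 of 17 SLC genes passed, 0 had an unadjusted p under 0.05 (5.13% of all genes) and DESeq2 called 0 (0.576% of all genes), again beside 0% of all genes by edgeR. *SLC25A48* was at 17.3, 5.78, 70.9 and 99.5 CPM in the liver tumors HS33, HS36, HS46 and HS50, and ran from 1.22 to 33.8 in the lung tumors. These overlapped, and the adjusted p was 0.977.

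The cell lines BD, OD and PJ were compared with the DC strain DC3F9 in their own table. All 3 lines lay below DC3F9 for *SLC35D2*, *SLC26A8*, *SLC25A48*, *SLC27A6* and *SLC39A7* and above it for *SLC35D3*, the 6 genes with an unadjusted p under 0.05. With 1 normal strain the spread comes from the lines alone and DC3F9 is assumed to vary like them, so these values compare the lines with 1 library. After adjustment edgeR called 0 of 16 SLC genes tested (0% of all genes), the 6 at an unadjusted p under 0.05 are 37.5% against 15.4% of all genes, and DESeq2 called 5 (31.2%, against 9.91% of all genes). By the looser rule of an unadjusted p under 0.05, a log2FC beyond 1.5 and all lines on the same side, 5 of 16 SLC genes (31.2%) stood out, where 13.1% of all genes did.

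*SLC27A6* was at 2059 CPM in DC3F9 and at 174, 10.3 and 39.3 CPM in BD, OD and PJ. DC3F9 was thus 11.9, 199 and 52.4 times the lines in raw CPM, and 16.4, 267 and 70.95 times after TMM scaling. The log2FC was -5.27 (SE 1.37, adjusted p = 0.207, edgeR). No tumor reached the level of DC3F9, the highest being HS53 at 294.7 CPM. *SLC25A48* was at 7.43 CPM in DC3F9 and at 0.797, 0.494 and 0.349 in BD, OD and PJ, below each tumor (lowest 1.22 CPM), with a log2FC of -4.23 (SE 0.78, adjusted p = 0.129, edgeR). Both genes were higher in tumors than in the 5 controls and lower in the lines than in DC3F9, and tumors and lines, counted in separate tables, were not tested against each other.

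*SLC35D2* was nearly silent in the lines. DC3F9 had 452 counts (5.51 CPM) while BD had 7 counts, OD 1 and PJ 1, so DC3F9 was 212 times the 3 lines pooled (exact 95% interval for counting error 110.9 to 468). The log2FC was -8.15 (SE 1.32, adjusted p = 0.11, edgeR), and all 18 tumors held at least 2.22 CPM. *SLC26A8* had 140 counts (1.71 CPM) in DC3F9 and 0, 1 and 0 counts in BD, OD and PJ, so it was not detected in the lines at this depth. Its log2FC of -9.20 (SE 1.44, adjusted p = 0.108, edgeR) depends on how the fit treats counts of 0 and is no bound.

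*SLC35D3* went the other way, with 13, 442 and 98 counts (0.11, 3.36 and 1.01 CPM) in BD, OD and PJ and 0 counts in DC3F9. Against the floor of 3 counts in DC3F9 the lines were at least 3.01-fold, 91.9-fold and 27.5-fold higher in raw CPM, before TMM scaling. The fitted log2FC of 10.3 (SE 3.77, adjusted p = 0.312, edgeR) is no bound. *SLC39A7* was at 144, 118 and 177 CPM in the lines and 267 in DC3F9, a log2FC of -1.34 (SE 0.37, adjusted p = 0.223, edgeR).

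Other genes placed the cultures apart without passing a test. *SLC35B4* was at 28.1, 72.8 and 59.5 CPM in BD, OD and PJ and 20.8 in DC3F9, with the 3 lines above each tumor. *SLC12A2* was at 31.8, 23.4 and 26.3 CPM in the lines and 8.34 in DC3F9, within the range of the tumors. *SLC18B1* was at 14.98 CPM in BD and at 1.45, 1.30 and 3.18 in OD, PJ and DC3F9. *SLC2A12* had 0 counts in all 4 cultures. The 5 histiocyte markers differed among themselves in BD, OD and PJ. The MHC class II genes *DLA-DRA* (396, 33.0 and 5.45 CPM, against 1580 in DC3F9) and *DLA-DMA* (65.0, 3.98 and 2.73, against 65.5) were below DC3F9 in each line. *DLA-DOA* (0.229, 0.814 and 0.575, against 0.0122) and *NCF4* (137.1, 207.4 and 241.1, against 110.4), an oxidase subunit of phagocytes, were above it in raw CPM. The cytokine receptor chain *CSF2RB* (93.4, 241.7 and 148.4, against 213.8) was above it in OD alone, also in raw CPM. Raw CPM understate DC3F9. After TMM scaling, *SLC35B4* and *NCF4* in BD and *CSF2RB* in OD lay below DC3F9, so these sides do not hold.

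**Figure D5:**
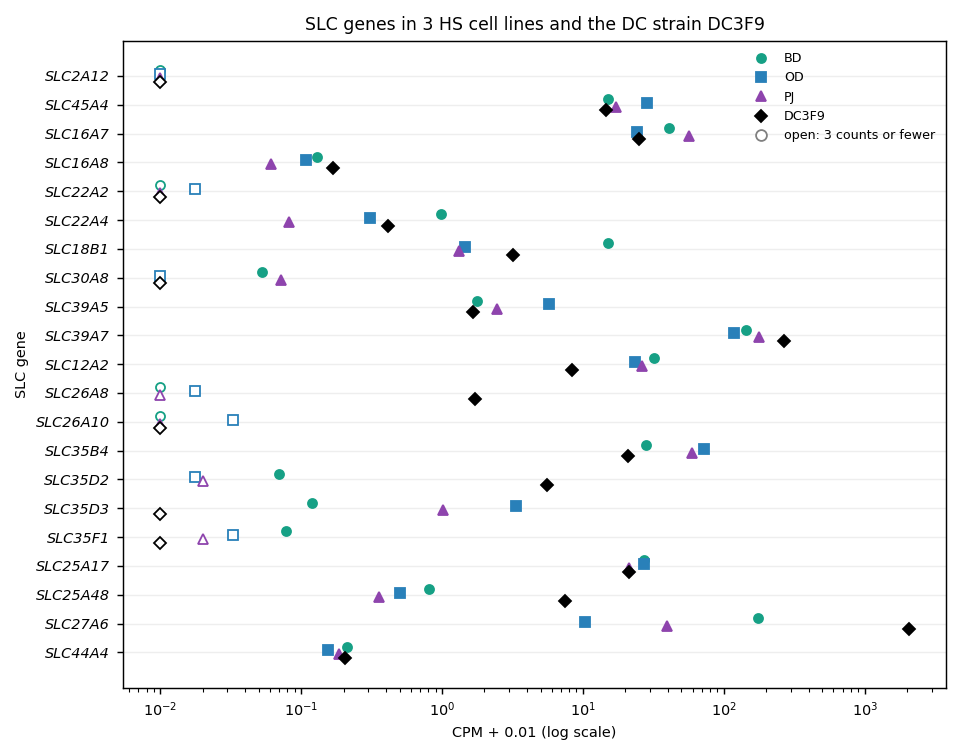
CPM + 0.01 on a log scale for each SLC gene in BD, OD, PJ and DC3F9, with open symbols for 3 counts or fewer. DC3F9 lies far right of the lines for *SLC27A6* (2059 CPM), *SLC35D2*, *SLC25A48* and *SLC26A8* and left of them for *SLC35D3*, where it has 0 counts.

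Of 13 related transport genes under other names (mitochondrial carrier homologs, pumps, channels and peptide transporters), 3 rose and 2 fell in tumors at an adjusted p under 0.05 by edgeR (38.5%, where 27.2% of all genes passed). *MTCH2*, a mitochondrial outer membrane protein of the SLC25 fold, rose with a log2FC of 1.55 (SE 0.32, adjusted p = 0.00134), *ATP6V1C1*, a subunit of the proton pump of lysosomes, with 1.44 (SE 0.31, adjusted p = 0.00168) and *VDAC1*, the channel of the mitochondrial outer membrane, with 0.73 (SE 0.24, adjusted p = 0.0286). All 18 tumors were above the controls' mean for *MTCH2* and 17 of 18 for *ATP6V1C1*. *NIPAL2*, related to magnesium transporters, had a log2FC of -2.03 (SE 0.59, adjusted p = 0.0143) and *UNC93A* of -5.95 (SE 1.48, adjusted p = 0.00517). *UNC93A* was at 29.6 CPM in the lung control, 0.116 in spleen and 0 counts in blood, so its fall rests on the lung. In the other comparisons 3 rose and 2 fell for HS tumors, and 0 passed for HHS tumors, for HHS against HS, for site and for the lines.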

How the data were processed

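RNA was sequenced from 18 tumors, 6 controls, 3 cell lines and 1 DC strain. Per the submitters' processing notes, the authors trimmed reads with cutadapt 3.7, aligned them with STAR 2.7.10a to CanFam3.1 and counted them with HTSeq 2.0.0, and deposited raw counts per gene. The strand option of counting and the annotation release are not given in the sources used here, so overlapping genes and close paralogs may share reads. The labels and the study's methods differ on the library kit of the cultured samples.

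CPM, log2FC and p-values were derived here from the deposited counts in R 4.3.3, using edgeR 4.0.16 (TMM factors, filterByExpr, quasi-likelihood test, Benjamini-Hochberg adjustment over all genes tested). DESeq2 1.42.0 was an alternative, with its size factors, no filter, other sets of controls and samples left out. Tumors and cultures were tested apart. Of the 22 genes, 1 is not reported here, and the other 21 are named, with log2FC where the adjusted p was under 0.05 (cultures: unadjusted p under 0.05 and 3 lines on the same side). For *SLC44A4*, *SLC45A4*, *SLC18B1* and *SLC2A12*, p-values outside that rule were added after their values were seen. The genes and lists were chosen with earlier results of these data known. On simulated counts with 200 changed genes, edgeR recovered 36.2% of 8-fold changes among 19430 genes for tumors against controls at the study's cutoff, with 0 false calls, and 3.08% among 18121 genes for the lines, with 2. In the data 27.2% of genes had an adjusted p under 0.05 by edgeR for tumors against controls. That is a larger share than was simulated, so the recovery rates and the numbers of false calls may not carry over. Pairs of libraries were compared within the 18 tumors, the 3 blood controls and the 3 lines. The closest pair, 2 blood controls, differed by a chi-square of 721 per gene, so no library in these sets was a copy of another. Pairs across sets, the solid controls and DC3F9 were not compared. Gene order came from the RefSeq gene table, which matched all 21 genes and is of another assembly. Figures used Python 3.11.15 and matplotlib 3.10.9.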

Additional observations from a re-analysis of the deposited data

Results flagged for a closer look

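In 60 sets of values (a gene in the 5 controls, the 4 liver tumors or the 6 lung tumors, where at least 1 library held more than 3 counts), the highest or lowest library lay far from the others 11 times by Dixon's test. Chance alone flags about 1 set in 20 if values are normally distributed, which was not checked for these CPM. All 11 flags were highest values, and controls of mixed tissue are not replicates. Among the controls, the lung stood out for *SLC44A4* at 29.3 CPM (next 0.347), *SLC16A8* at 0.195 and *SLC35D3* at 0.117, and the spleen for *SLC22A2* at 0.256. Among the liver tumors, HS33 stood out for *SLC35D3* at 3.15 CPM (next 0.00582), HS46 for *SLC18B1* at 15.9 (next 4.31) and HS36 for *SLC30A8* at 0.0281, a value at the level of 4 counts. Among the lung tumors, HS52 stood out for *SLC44A4* at 13.8 CPM and *SLC35D3* at 0.681, HS53 for *SLC27A6* at 294.7 (next 59.97), and HS27 for *SLC26A10* at 1.498.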

How the results depend on the processing

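DESeq2 moved the number of SLC genes called from 0 to 1 for tumors, from 2 to 4 for HS tumors, from 0 to 6 for HHS tumors and from 0 to 5 for the lines, and on simulated counts made 11, 55, 115 and 209 false calls there, against 0, 1, 0 and 2 by edgeR. At an adjusted p under 0.05 and a log2FC beyond 1.5, the 3 SLC genes of tumors against controls became 1 against spleen and lung and 6 against blood, and the 2 of HS tumors became 0 against spleen and lung. *SLC26A8* reversed to a log2FC of 3.28 against spleen and lung, where its adjusted p was 0.368. With 1 library left out at a time, counts ran from 0 to 1 for tumors at the strict cutoff, from 0 to 4 at 0.05, and from 0 to 5 for HS tumors. The strict count became 1 without HS14 (*SLC26A8*) or HS52 (*SLC44A4*, whose fall rests on the lung control). At 0.05 the count was 0 without blood control 1 and 1 without blood control 2. For HS tumors it was 0 without any 1 blood control and 5 without the spleen. Leaving out HS33, HS51 and HS52, an alternative chosen after values were seen, as was leaving out each tumor, kept 3 genes. *SLC12A2* stayed lower in tumors under all 30 alternatives (-1.58 to -1.26) and past 0.05 in 29, while *SLC27A6* was past it in 9 of 30. TMM scaling moved the number of genes in which liver exceeds every tumor from 3 to 9. The cause of each change was not tested. With 1 library per solid tissue and 1 DC strain, normal variation there is unknown. No paired analysis was possible, since the study describes its controls as unaffected and the solid controls were of another breed than the tumors.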
